A study of Mus musculus with 8 samples.

Results

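The genes described here are 44 members of the Wnt and beta-catenin pathway: 10 Wnt ligands, 2 genes of ligand secretion, 10 Frizzled receptors, 2 LRP co-receptors, 7 secreted inhibitors, 3 Dishevelled genes, 6 genes of the destruction complex, and beta-catenin with 3 nuclear partners or inhibitors. They were chosen by gene name out of 27373 distinct names on the array. Every probe with a member's name was taken, which gave 74 probes. Whole hippocampus was compared between 4 BTBR mice and 4 B6 (C57BL/6J) mice on single-color Agilent arrays, 1 mouse per array. BTBR is an inbred strain used as a mouse model of autism, and its genotype is labeled BTBR T+ Itpr3tf/J, whereas the B6 mice are labeled wild type. All 8 mice were male, 5 months old and without pharmacological treatment. The labels name C57BL/6J as strain background of both groups, although the study describes BTBR as an inbred strain of its own, and title, source and genotype place the arrays in the BTBR group.

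Wnt proteins are lipid-modified ligands that Porcn acylates and Wls carries to the cell surface. In the canonical branch a ligand binds a Frizzled receptor together with Lrp5 or Lrp6, Dishevelled is recruited, and the destruction complex of Axin, Apc, Csnk1a1 and the Gsk3 kinases stops marking beta-catenin for degradation. Beta-catenin then enters the nucleus and joins TCF/LEF factors, which in its absence are held with TLE corepressors. In the hippocampus the pathway is known for its part in the growth of the dentate gyrus, in adult neurogenesis and in the formation of synapses. The inhibitors act outside the cell. SFRP proteins (Sfrp1, Sfrp2, Sfrp5, Frzb) and Wif1 bind Wnt ligands, and Dickkopf proteins such as Dkk2 bind LRP co-receptors.

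The strain difference turned on few probes, and the first 30 of the 60 bases of each are shown as the array files give them, 5′ to 3′, to let the 2 probes of Fzd2 and of Sfrp1 be told apart. Positions are on mm9. Sfrp1 (NM_013834) was measured at chr8:24558112-24558171 and chr8:24558800-24558859 on the plus strand, starts that lie 688 bases apart. Fzd2 (NM_020510) was measured at chr11:102467613-102467672 and chr11:102469045-102469104 on the plus strand, 1432 bases apart. Frzb (NM_011356) was measured at chr2:80252582-80252641 and Gsk3a (NM_001031667) at chr7:26013436-26013495, both on the minus strand. The exon or UTR in which each probe lies was not analysed here.
Sfrp1, probe A_51_P352296: cggaatcagtatagcgtggaaggagacagt
Sfrp1, probe A_52_P564706: gtgcattagtaattagaaatagtctaacct
Fzd2, probe A_51_P404077: tcacagtctacatgatcaaatacctcatga
Fzd2, probe A_52_P129428: cgtgacattctatatcataagatattgata
Frzb, probe A_51_P286748: gtgcaccagggtgttatttaacagaggtat
Gsk3a, probe A_51_P437279: atagattgttataattttttcttaaagaaa

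Levels are normalized log2 intensities, and a difference is BTBR minus B6 on that scale, so that a difference of 1 is a doubling. A probe was tested when Feature Extraction placed it well above background on 75% or more of the arrays in either strain. Probes flagged as outliers at every spot on any array were left out, and 27982 probes remained. Between 56.8% and 71.9% of the probes were well above background on an array, and no probe was saturated. The arrays sat on 2 slides, slide 1 with replicates 1 and 2 of both strains and slide 2 with replicates 3 and 4. Neuronal markers, which define the labeled tissue in part, lay between 14.95 and 15.14 on all 8 arrays as a mean over 10 genes, of which the neurofilament gene Nefl was called lower in BTBR (-0.66, limma adjusted p = 0.00270). BTBR replicates 1 and 2 stood apart in the mean levels of lists for hippocampal regions. The mean over 5 CA1 markers was 12.48 and 12.45 on these arrays and between 13.35 and 13.74 on the other 6, and the mean over 4 CA3 markers was 11.55 and 11.58 against 12.38 to 12.83, while Iyd, also listed, stayed at background. The dentate gyrus list of 6 genes read 10.89 and 10.02 there, and 11.49 to 12.64 elsewhere. Not every gene followed these means. Wfs1 of the CA1 list read 14.48 and 14.94 there, against 14.20 to 14.52 in B6. Calb1 of the dentate gyrus list read 14.75 and 14.68, against 14.64 to 14.79 in B6. The list of 11 choroid plexus genes read 11.91 and 11.80 there, and 9.94 to 11.23 elsewhere. The mean over 12 thalamic genes was 13.38 on BTBR replicate 1, against 10.45 to 11.05 on the other arrays. BTBR replicate 2 was next with 11.05, above the remaining arrays in some of these genes and below them in others. It was highest in oligodendrocyte genes, with 14.42 against 13.41 to 14.08. The list of 10 astrocyte genes read 13.96 to 14.05 in B6 and 13.76 to 13.89 in BTBR, with no overlap. Most of this gap came from 1 gene, the intermediate filament gene Gfap. Gfap was called lower (mean 12.53 in BTBR against 13.83 in B6, limma adjusted p = 0.00145). Of the 10 genes, 3 were higher in BTBR and the rest lower, and none apart from Gfap was called. The list mean therefore does not show that astrocyte genes were lower as a class. The microglia list ranged from 12.10 to 12.41 over all arrays, but 4 of its 10 genes were called, Cx3cr1 as higher (1.41) and C1qb (-1.01), C1qc (-0.57) and Itgam (-0.40) as lower in BTBR. The part of these levels in the members' values was not tested. Over all arrays the endothelial list ranged from 10.91 to 11.19 and the Cajal-Retzius list from 9.74 to 9.99. The meninges list was between 10.57 and 11.65 except on BTBR replicate 4, where it was higher. Values without BTBR replicates 1 and 2 are therefore given beside many of the results, a step chosen after their values were seen.

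**Figure D1:**
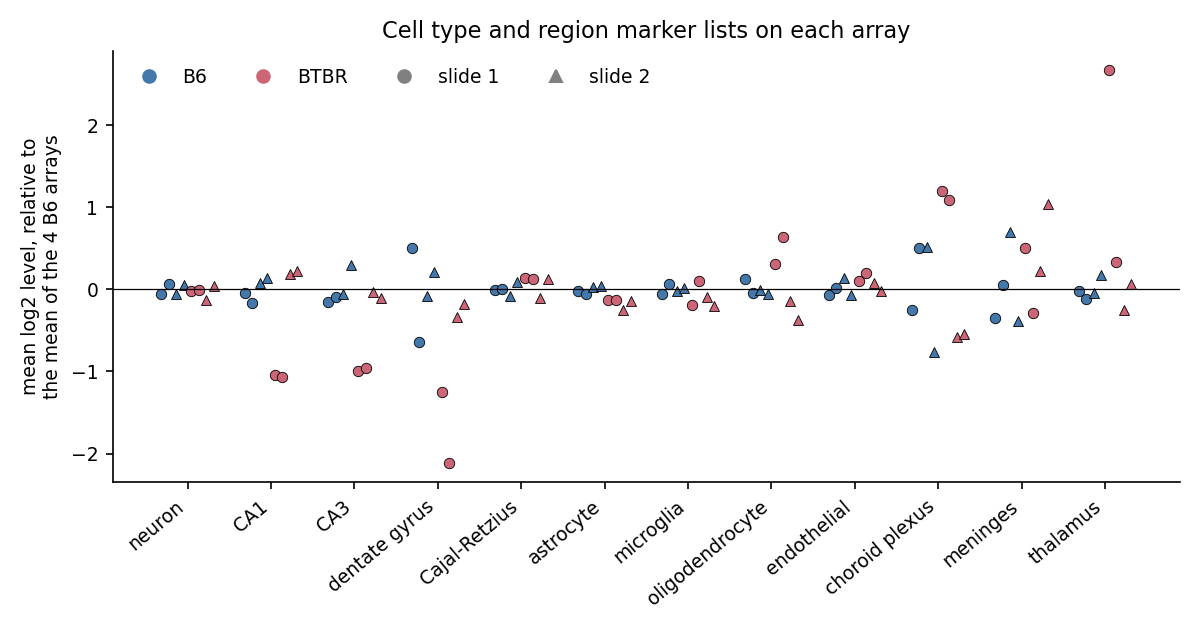
Mean normalized log2 level of each cell type or region marker list on each array (points), relative to the mean of the 4 B6 arrays. Circles are slide 1 and triangles are slide 2. The 2 BTBR circles lie lowest in the CA1, CA3 and dentate gyrus lists and highest in the choroid plexus list.

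For most members no strain difference was detected beyond the spread between mice. Of the 44 genes, 41 had a tested probe, with 65 tested probes in all, of which 56 were well above background on all 8 arrays. Limma called 3 of the 65 probes (4.62%) at an adjusted p under 0.05, Sfrp1 as higher and Fzd2 and Gsk3a as lower in BTBR, and it called 7.67% of all probes tested, 3.33% as higher and 4.33% as lower. The called Fzd2 probe entered the test through the B6 arrays alone, and limma called 2 probes, of Sfrp1 and Gsk3a, when signal well above background was required on all arrays. By gene, 3 of 41 members had a called probe (7.32%) and 10.1% of all gene names did. An unadjusted p under 0.05 was found for 10 member probes (15.4%), as it was for 18.5% of all probes, and 3 of the 10, a probe each of Fzd2, Sfrp1 and Dkk2, passed the filter through a single strain. The rank product, the test named in the study's methods, called 3 member probes (4.62%) at a pfp, the estimated share of false positives, of at most 0.05, and 3.95% of all probes. Its calls were Sfrp1, Fzd2 and Frzb. Of these it called Sfrp1 alone when any one B6 array was left out. The Fzd2 call was also lost without BTBR replicate 3 or 4 and with the deposited matrix, and the Frzb call without BTBR replicate 1 or 2 and with the processed signal. The arrays of the strains did not overlap at 8 member probes (12.3%), 4 higher and 4 lower in BTBR, and at 14.2% of all probes. The shares among the members were near those among all probes. The median difference was 0.01 over the member probes and 0.01 over all probes, and 75.4% of member probes and 80.3% of all probes differed by less than 0.25 in either direction. In whole tissue, fewer cells of a type and less RNA per cell cannot be told apart.

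**Figure D2:**
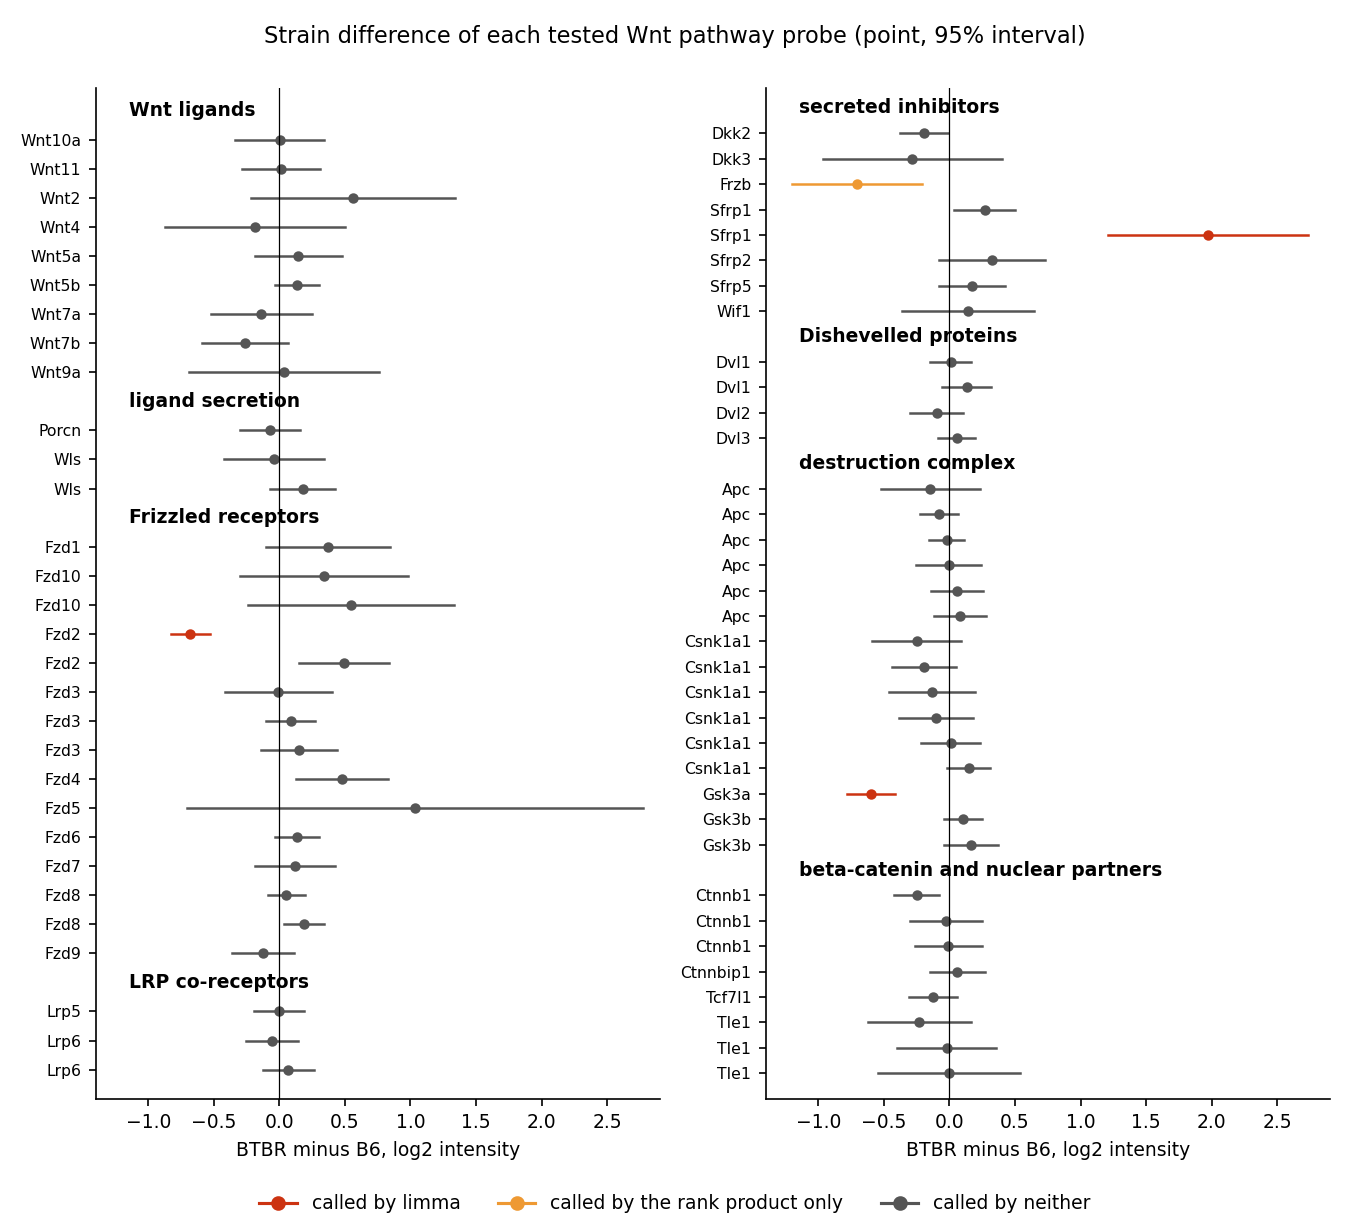
BTBR minus B6 difference in normalized log2 intensity (point) with the 95% interval from limma (line) for the 65 tested probes of 41 Wnt pathway genes, grouped by role. Sfrp1 lies at 1.97, whereas most probes lie within 0.25 of 0, and Fzd5 has the widest interval.

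With all arrays, no ligand probe was called by limma or the rank product, and none had an unadjusted limma p under 0.05. Of the 10 genes, 9 had a tested probe, with 6 probes higher and 3 lower in BTBR and differences between -0.26 and 0.56. Wnt8b (NM_011720) stayed at background on all 8 arrays, so that a difference could not be measured for it. The widest difference belonged to Wnt2 (NM_023653). Its probe read 10.71, 10.32, 10.50 and 10.71 on the B6 arrays and 10.11, 11.05, 12.06 and 11.26 on the BTBR arrays. BTBR replicate 1 lay below every B6 array and the other 3 BTBR arrays lay above them. The mean was 10.56 ± 0.19 (SD, n = 4) for B6 and 11.12 ± 0.80 (SD, n = 4) for BTBR, a difference of 0.56 with a 95% interval from -0.22 to 1.34 (limma adjusted p = 0.45). Without BTBR replicates 1 and 2 the Wnt2 difference was 1.10 and limma called it (adjusted p = 0.0310), and without BTBR replicate 3 it was 0.25. The rank product called Wnt2 without those 2 arrays and also without BTBR replicate 1 alone. On slide 1 the Wnt2 difference was 0.07 and on slide 2 it was 1.05.
The ligands known chiefly for canonical signaling in the brain, Wnt7a and Wnt7b, were not called. Wnt7b (NM_009528) had a mean of 10.67 ± 0.12 (SD, n = 4) in the B6 and 10.41 ± 0.31 (SD, n = 4) in the BTBR group, a difference of -0.26 with a 95% interval from -0.59 to 0.07. Wnt7a (NM_009527) differed by -0.14, with an interval from -0.52 to 0.25. Leaving out BTBR replicates 1 and 2 brought Wnt7b to -0.02 and Wnt4 from -0.19 to -0.42.
Wnt5a and Wnt11, which signal largely without beta-catenin, were close between strains. The brighter Wnt5a probe differed by 0.15 (95% interval from -0.19 to 0.48) and Wnt11 by 0.01 (-0.29 to 0.31). Wnt5b differed by 0.14, with an interval from -0.03 to 0.30. Wnt4 differed by -0.19 (-0.87 to 0.50), Wnt9a by 0.03 (-0.69 to 0.76) and Wnt10a by 0.00 (-0.34 to 0.34), so that for Wnt4 and Wnt9a the arrays could not exclude a change of 0.5 in either direction. The 2 genes of ligand secretion did not differ detectably either. Porcn (NM_023638) had a mean of 12.95 ± 0.03 (SD, n = 4) in the B6 and 12.88 ± 0.21 (SD, n = 4) in the BTBR group, and the 2 probes of Wls, the carrier of Wnt ligands, differed by -0.04 (-0.30 without BTBR replicates 1 and 2) and 0.18.

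The Frizzled receptors had 15 tested probes, 12 of them higher and 3 lower in BTBR, with a median difference of 0.15, and limma called 1 of them. When BTBR replicates 1 and 2 were left out, 9 of the 15 were higher, with a median of 0.02. Fzd2, a receptor for both canonical and other Wnt signals, had 2 probes that differed in opposite directions. The probe A_52_P129428 read 8.34, 8.36, 8.34 and 8.38 on the B6 arrays and 7.74, 7.77, 7.55 and 7.65 on the BTBR arrays. All 4 BTBR arrays lay below all B6 arrays, and only the B6 arrays were well above background (4 of 4, against 0 of 4 BTBR arrays). Since the probe passed the filter through B6 alone and the BTBR signal was not well above background, no exact ratio can be given. B6 was 1.54-fold higher when each BTBR value was raised to the lowest level well above background on its array, if below it. That ratio depends on the scaling, since the difference ran from -2.90 with the processed signal to -0.38 with the deposited matrix. The measured difference of -0.68, which limma called (adjusted p = 2.28e-04), sets a signal against background.
The other probe of Fzd2, A_51_P404077, was well above background on all 8 arrays. It read 11.62, 11.91, 11.85 and 11.48 in B6 and 12.31, 12.55, 12.04 and 11.93 in BTBR. Here all BTBR arrays lay above all B6 arrays. The difference was 0.49 with a 95% interval from 0.15 to 0.83, which limma did not call (adjusted p = 0.10), and it was 0.27 without BTBR replicates 1 and 2 (adjusted p = 0.37). When the 2 probes were summarized by their median, limma did not call Fzd2.
Fzd4, which is known for vascular signaling through norrin, had arrays that did not overlap. Its probe (NM_008055) read 11.25, 11.25, 11.37 and 10.71 in B6 and 11.64, 11.89, 11.54 and 11.42 in BTBR, a difference of 0.48 (95% interval from 0.13 to 0.83, limma adjusted p = 0.12). It was 0.33 without BTBR replicates 1 and 2 (adjusted p = 0.41). The 10 endothelial markers gave a mean between 10.91 and 11.12 in B6 and between 10.97 and 11.19 in BTBR, with no member at background on every array. Their part in the Fzd4 value was not tested. Fzd8 had a probe without overlap as well, with means of 8.24 ± 0.08 (SD, n = 4) for B6 and 8.43 ± 0.07 (SD, n = 4) for BTBR (difference 0.19, limma adjusted p = 0.16), and its other probe differed by 0.05.
In 3 receptor genes a single BTBR array set most of the difference. Fzd5 (NM_022721) read 7.71 to 8.13 in B6, and in BTBR it read 11.74 on replicate 3 and 7.98 to 8.15 on the other 3 arrays. The difference of 1.03 became 0.11 without that array. The rank product called Fzd5 with the processed signal, without BTBR replicate 1 or 4, and without BTBR replicates 1 and 2 together. Fzd10 was highest on BTBR replicate 1 at both of its probes, with 10.03 at the brighter one (A_52_P203560) against 8.09 to 8.68 on the other arrays. That probe differed by 0.55 with all arrays and by 0.15 without BTBR replicate 1, the array highest in thalamic markers. The part of these markers in its values was not tested. Fzd1 was likewise highest on that array, at 12.13 against 10.96 to 11.34 elsewhere, and its difference of 0.37 became 0.14 without it.
With all arrays the remaining receptors differed little. The 3 probes of Fzd3, a receptor known for axon guidance, differed by -0.01 to 0.15. Without BTBR replicates 1 and 2 the brightest of them went from -0.01 to -0.33 (limma adjusted p = 0.23), and the others gave 0.01 and -0.01. That brightest probe gave 0.26 on slide 1 and -0.27 on slide 2. Fzd6 differed by 0.13 (95% interval from -0.03 to 0.30). Fzd7 differed by 0.12 (-0.19 to 0.42) at its tested probe and by -0.10 without BTBR replicates 1 and 2. Fzd9 differed by -0.13 (-0.36 to 0.11), and by -0.21 without those arrays. Fzd9 (NM_010246), the Frizzled gene deleted in Williams syndrome, had a mean of 11.00 ± 0.09 (SD, n = 4) in the B6 and 10.87 ± 0.20 (SD, n = 4) in the BTBR group. The co-receptors had 3 tested probes and no call. Lrp5 differed by -0.01 (95% interval from -0.20 to 0.18), and the probes of Lrp6 by 0.07 and -0.06, with no interval reaching beyond 0.26 in either direction.

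**Figure D3:**
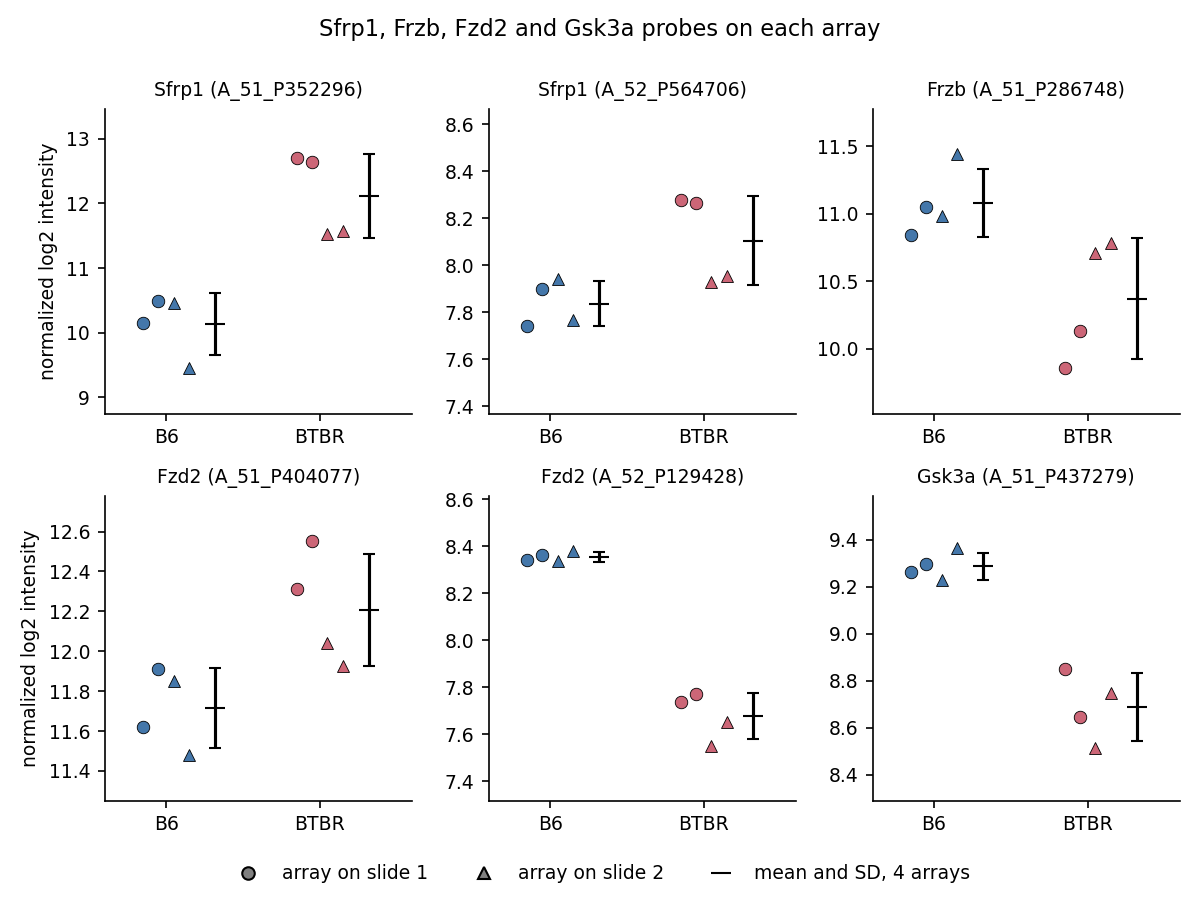
Normalized log2 intensity of the probes of Sfrp1, Frzb, Fzd2 and Gsk3a on each array (points), with the mean and SD of the 4 arrays of each strain (bars); the vertical axes start at different levels. The Sfrp1 probe A_51_P352296 is higher on all BTBR arrays, both Fzd2 probes separate the strains in opposite directions, and Gsk3a is lower on all BTBR arrays.

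The secreted inhibitors held the largest difference among the members. Sfrp1, which binds Wnt ligands outside the cell, rose 3.93-fold in BTBR mice at the probe A_51_P352296. The B6 arrays read 10.15, 10.49, 10.47 and 9.46 and the BTBR arrays read 12.70, 12.64, 11.53 and 11.58. Each BTBR array lay above each B6 array, and the BTBR arrays of slide 1 lay above those of slide 2. The means were 10.14 ± 0.48 (SD, n = 4) and 12.11 ± 0.65 (SD, n = 4), a difference of 1.97 (standard error 0.34, 95% interval from 1.21 to 2.73, limma adjusted p = 0.00665; exact permutation p = 0.0286, the smallest that 4 against 4 arrays allow). The rank product called it too. On slide 1 the difference was 2.35 and on slide 2 it was 1.59, and the strain by slide interaction had a limma adjusted p of 0.56.
Levels of choroid plexus markers moved with Sfrp1 in part. The 11 tested markers, of 12 listed, gave a mean between 9.94 and 11.23 in B6 and between 10.13 and 11.91 in BTBR, with 10 of 11 higher and none called, and the 12th, Kcnj13, was not tested. The 2 arrays with the highest Sfrp1 values, BTBR replicates 1 and 2, also had the highest marker means. Within BTBR replicates 3 and 4 the marker means were 10.13 and 10.17, below the 11.22 and 11.23 of B6 replicates 2 and 3, while Sfrp1 read 11.53 and 11.58 against 10.49 and 10.47. The part of these levels in the Sfrp1 difference was not tested. Without BTBR replicates 1 and 2 the Sfrp1 difference was 1.41 (standard error 0.28, limma adjusted p = 0.0286).
The other Sfrp1 probe, A_52_P564706, was dim. Only 1 of 4 B6 arrays and 3 of 4 BTBR arrays were well above background, so that it passed the filter through BTBR alone and its difference sets a signal against background. It read 7.74, 7.90, 7.94 and 7.77 in B6 and 8.28, 8.26, 7.93 and 7.95 in BTBR. The strains overlapped, since BTBR replicate 3 lay below B6 replicate 3. The measured difference of 0.27 was not called (limma adjusted p = 0.19).
Frzb, also a secreted Wnt-binding protein, was lower on all BTBR arrays. It read 10.85, 11.05, 10.98 and 11.44 in B6 and 9.86, 10.13, 10.71 and 10.79 in BTBR. The 2 BTBR arrays of slide 1 were lowest, and the 2 of slide 2 lay just under the lowest B6 array. The difference was -0.71 (standard error 0.22, 95% interval from -1.20 to -0.21), which the rank product called (pfp = 0.0477) and limma did not (adjusted p = 0.10). With the slide as a block limma called it as well (adjusted p = 0.0193). Slide 1 gave -0.95 and slide 2 gave -0.46. Without BTBR replicates 1 and 2, the arrays low in CA1, CA3 and dentate gyrus markers, the Frzb difference was -0.33 (limma adjusted p = 0.34).
Dkk3, a divergent Dickkopf family member abundant in the brain, depended on the same arrays. It read 14.10, 13.81, 14.37 and 14.39 in B6 and 13.40, 13.23, 14.43 and 14.48 in BTBR. Only BTBR replicates 1 and 2 were low, and the other BTBR arrays were the highest of all 8. The difference was -0.28 (95% interval from -0.96 to 0.40), with -0.64 on slide 1 and 0.07 on slide 2. The part of the CA1, CA3 and dentate gyrus levels in the values of Frzb and Dkk3 was not tested.
The other inhibitors were not called. Sfrp2 (NM_009144) had a mean of 9.02 ± 0.30 (SD, n = 4) in the B6 and 9.35 ± 0.28 (SD, n = 4) in the BTBR group, a difference of 0.33 (95% interval from -0.08 to 0.73), and 0.13 without BTBR replicates 1 and 2. Sfrp5 differed by 0.17 (-0.08 to 0.42), and by -0.01 without those arrays, and Wif1 by 0.14 (-0.36 to 0.64). Dkk2, well above background on 3 B6 and 2 BTBR arrays, passed the filter through B6 alone, and its measured difference of -0.19 (limma adjusted p = 0.24) sets a signal partly against background.

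Inside the cell, Gsk3a was the member that fell. Gsk3a and Gsk3b are the kinases that phosphorylate beta-catenin in the destruction complex. The Gsk3a probe read 9.26, 9.30, 9.23 and 9.36 in B6 and 8.85, 8.64, 8.51 and 8.75 in BTBR. All BTBR arrays lay below all B6 arrays. The difference was -0.60 (standard error 0.08, 95% interval from -0.78 to -0.42, limma adjusted p = 0.00175; exact permutation p = 0.0286), at a pfp of 0.0582 from the rank product, just past its threshold. It was -0.53 on slide 1 and -0.67 on slide 2, and -0.66 without BTBR replicates 1 and 2.
Its paralog Gsk3b was not called. The brighter probe of Gsk3b (NM_019827) had a mean of 11.70 ± 0.08 (SD, n = 4) in the B6 and 11.86 ± 0.17 (SD, n = 4) in the BTBR group, a difference of 0.17 (95% interval from -0.04 to 0.37, limma adjusted p = 0.39), and the other probe differed by 0.10 (-0.05 to 0.25). The difference between the 2 paralogs itself was not tested.
The scaffold Apc had 6 probes with differences from -0.15 to 0.08, none called. Csnk1a1, which primes beta-catenin for the Gsk3 kinases, had 6 probes from -0.25 to 0.15, none called, and its lowest value, -0.25 at the brightest probe, was 0.01 without BTBR replicates 1 and 2. Neither Axin gene was tested. Axin2, a target of canonical signaling as well as a scaffold, stayed at background on all 8 arrays. The single Axin1 probe carried an outlier flag on BTBR replicate 3, where it read 13.39 against 9.57 to 9.81 on the other arrays, and was left out. The Dishevelled genes, which relay the signal from the receptors, had 4 tested probes with differences from -0.10 to 0.13, and no interval reached beyond 0.32.

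With all arrays, beta-catenin itself was close between the strains at 2 of its 3 probes. Ctnnb1 (NM_007614) had a mean of 14.17 ± 0.07 (SD, n = 4) in the B6 and 14.16 ± 0.23 (SD, n = 4) in the BTBR group at its brightest probe, a difference of -0.01 with a 95% interval from -0.26 to 0.24. A further probe gave -0.03. The dimmest of its 3 probes (A_52_P472397) read 11.01, 10.84, 10.95 and 10.98 in B6 and 10.81, 10.55, 10.73 and 10.69 in BTBR. The arrays did not overlap at this probe, and its difference of -0.25 (95% interval from -0.42 to -0.08) was not called at a limma adjusted p of 0.087. Without BTBR replicates 1 and 2 the 3 probes gave -0.17, -0.18 and -0.24 in the same order (limma adjusted p from 0.16 to 0.31). The brightest 2 gave 0.15 and 0.12 on slide 1, and -0.17 and -0.17 on slide 2. Ctnnbip1, which keeps beta-catenin from TCF factors, differed by 0.06 (-0.15 to 0.27). Tcf7l1, a TCF factor that mostly represses, differed by -0.13 (-0.31 to 0.05). The 3 probes of the corepressor Tle1 differed by -0.23, -0.02 and 0.00 with all arrays. Without BTBR replicates 1 and 2 they differed by -0.01, 0.22 and 0.35 in the same order, none called. With all arrays the interval ran from -0.62 to 0.16 at the first and was widest, from -0.54 to 0.54, at the last.

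Probes of a gene mostly gave like differences. Of the 13 members with at least 2 tested probes, the differences lay within 0.25 of each other in 10. They lay at least 0.5 apart in Sfrp1, by 1.70, and in Fzd2, by 1.17, and by 0.40 in Csnk1a1. In both Sfrp1 and Fzd2 1 of the probes was not well above background on every array, and it passed the filter through a single strain, so that the size of the gap is not exact. Gsk3a was measured by 1 probe alone.
The slides gave the same direction for the called Sfrp1 probe, Gsk3a and Frzb. In limma's test of the difference between slides their adjusted p ran from 0.54 to 0.77, which with 2 arrays of each strain per slide does not show that the slides were alike. Dkk3 had the smallest unadjusted p of the difference between slides among the members described here (0.00338, adjusted p = 0.41).

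**Figure D4:**
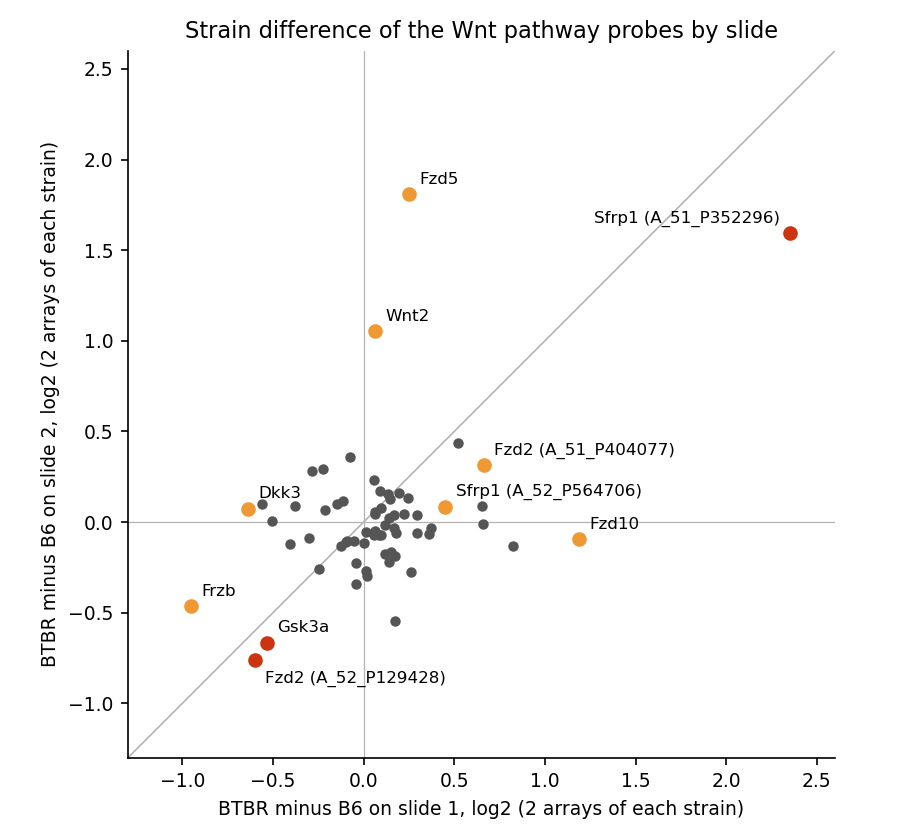
BTBR minus B6 difference of each tested Wnt pathway probe on slide 1 (horizontal, log2) against slide 2 (vertical, log2), 2 arrays of each strain per slide, with the line of equal values. Red points were called by limma and orange points are named without a limma call. Sfrp1 lies at 2.35 and 1.59, whereas Wnt2 and Fzd5 lie high on slide 2 alone and Fzd10 on slide 1 alone.

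Other genes of the pathway were taken from a list of 109 names written from general knowledge, of which 106 were on the array and 95 had a tested probe, with 172 probes. Limma called 8 of the 95 genes (8.42%), each at 1 probe, 2 higher and 6 lower in BTBR, against the 10.1% of all gene names given above, and the rank product called 7 of the 172 probes (4.07%). Their median difference was -0.01.
Among 13 tested target genes of canonical signaling, Ccnd1 and Id2 fell. Ccnd1, the cyclin of the G1 phase, read 11.37, 11.59, 11.79 and 11.86 in B6 and 10.54, 10.50, 10.66 and 10.70 in BTBR, with no overlap. The difference was -1.05 (standard error 0.11, limma adjusted p = 4.07e-04), and -0.97 without BTBR replicates 1 and 2. Id2, an inhibitor of basic helix-loop-helix factors, fell by 0.57 at 1 of its 3 probes (limma adjusted p = 0.0139), while the others differed by -0.30 and -0.03, and without BTBR replicates 1 and 2 it was not called (-0.48, adjusted p = 0.098). Over the 22 tested probes of these target genes, 3 were higher and 19 lower, with a median of -0.16, whereas 53.1% of all tested probes were higher. With BTBR replicates 1 and 2 left out, 5 were higher and 17 lower, with a median of -0.10, and within slide 2 the split was 8 higher and 14 lower, with a median of -0.16. Prox1, a dentate gyrus marker, is among them, and the dentate gyrus list was lowest on BTBR replicates 1 and 2. Its part in these counts was not tested.
In the cytoplasm, Ppp2r5a, a regulatory subunit of the phosphatase PP2A, rose at 1 of 3 probes. That probe read 13.21, 13.29, 13.26 and 13.13 in B6 and 14.47, 14.89, 14.71 and 14.43 in BTBR, a difference of 1.40 (limma adjusted p = 4.9e-05), and the others differed by 0.17 and 0.19. Of the casein kinase genes, Csnk1d fell by 0.59 at 1 of 4 probes (limma adjusted p = 0.00180) and Csnk1g1 by 0.44 at 1 of 3 (limma adjusted p = 0.0284). Ccdc88c, a Dishevelled-binding protein, fell by 0.48 at 1 of 3 probes (limma adjusted p = 0.00264). These 4 probes kept their calls without BTBR replicates 1 and 2, with differences of 1.35, -0.54, -0.35 and -0.41 in the same order. Csnk1g1, however, lost its call without any one B6 array, within each slide and with the processed signal, and Ccdc88c lost it within slide 2.
At the cell surface, Znrf3, a ubiquitin ligase that removes Frizzled receptors, fell at its single tested probe. It read 10.39, 10.13, 10.10 and 10.19 in B6 and 9.78, 9.66, 9.55 and 9.64 in BTBR, a difference of -0.54 (standard error 0.08, limma adjusted p = 0.00363), and -0.61 without BTBR replicates 1 and 2. In the planar polarity branch, which uses Frizzled and Dishevelled without beta-catenin, Daam1 rose. This formin read 10.17, 9.91, 10.25 and 10.24 in B6 and 11.25, 11.25, 11.31 and 11.37 in BTBR, a difference of 1.15 (standard error 0.09, limma adjusted p = 4.3e-05), and a further tested probe differed by -0.10. The called Daam1 probe kept its call without BTBR replicates 1 and 2 (limma adjusted p = 9.55e-04). Limma called no list member among the other ligands (4 genes tested), the other nuclear partners (19 genes) or the other secreted inhibitors (6 genes), where an unadjusted p under 0.05 was found for 0 of 6, 8 of 36 and 2 of 7 probes, beside the 18.5% of all probes given above. The rank product called 1 of the other secreted inhibitors, Sostdc1.

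**Figure D5:**
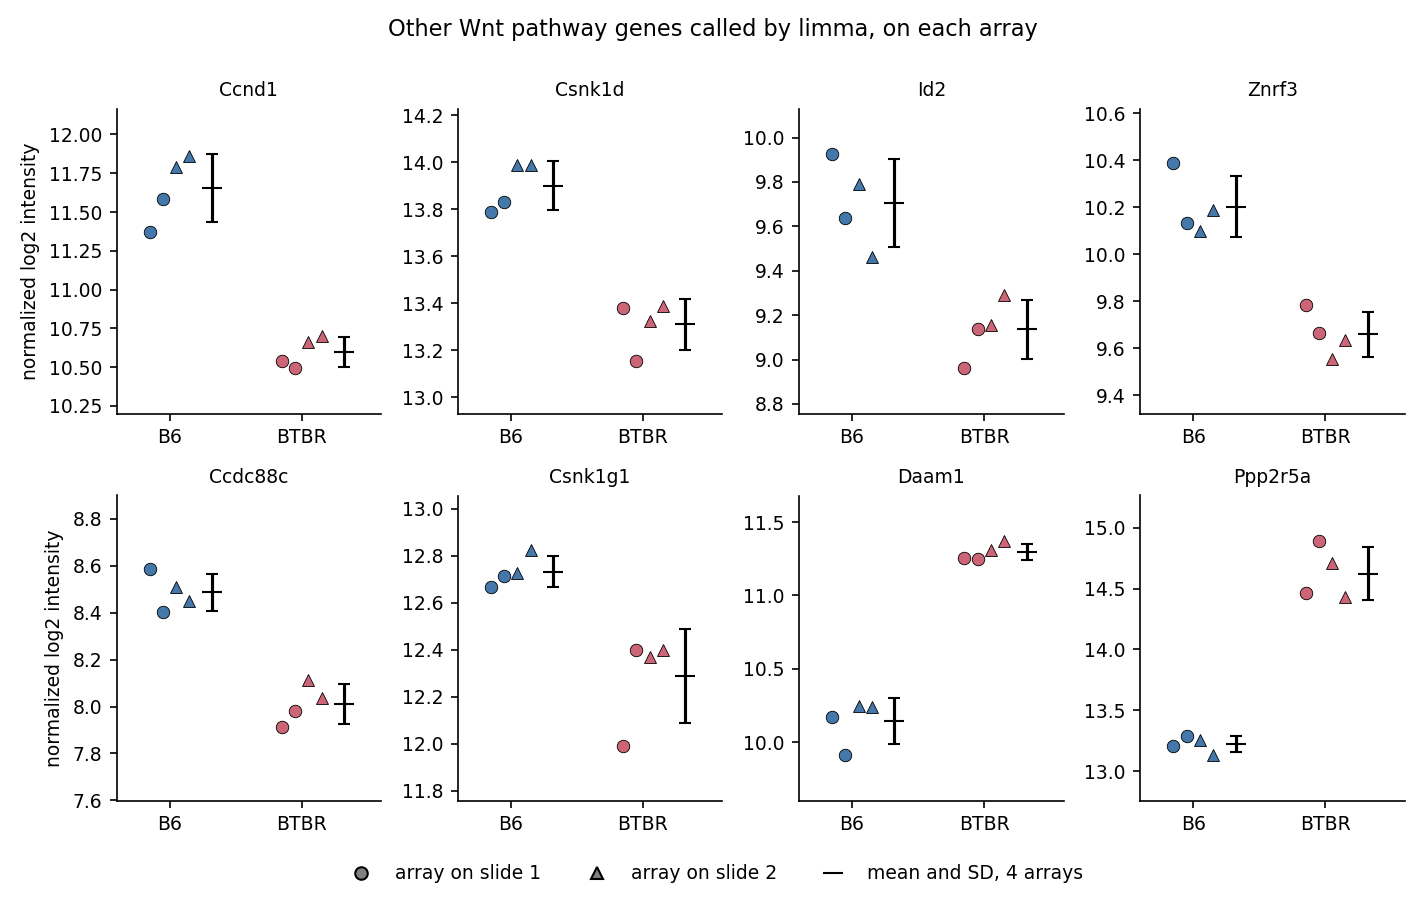
Normalized log2 intensity of the called probe of the 8 other pathway genes on each array (points), with the mean and SD of the 4 arrays of each strain (bars); the vertical axes start at different levels. The strains do not overlap at any of the 8 probes, Daam1 and Ppp2r5a are higher in BTBR, and the other 6 are lower. These probes were chosen for their limma calls, from which a lack of overlap largely follows. Over all 172 tested probes of the list 16 (9.30%) did not overlap, beside 14.2% of all probes.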

How the data were processed

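Hippocampal gene expression was measured on 8 single-color Agilent arrays, 1 mouse per array, and strains were taken from the labels. Spot intensity was deposited by the authors without scaling between arrays. It was read after Cy3 labeling with Agilent Feature Extraction, whose version was 10.7.3.1 per the file headers and 9.1 in the submitters' processing notes. The authors also deposited a matrix of log2 values, made with Agi4x44PreProcess, quantile normalization and medians of replicate spots. It served as an alternative, and the offset of that matrix is not given in the sources used here. Coordinates are mm9 as in the array files, and gene names are theirs.
Limma 3.58.1 ran in R 4.3.3, with tables read by the data.table package. Figures, rank products and permutation tests were made in Python 3.11.15 (SciPy 1.17.1, NumPy 2.4.6). For each spot the median local background was taken from the mean intensity, the result was floored at 0.5, 50 was added to it, and quantile normalization was run on log2 over non-control spots. Spots with an outlier flag were left out, and the median was taken over replicate spots. This removed 154 probes, and 27982 of 41174 probes passed both this step and the filter on dim probes. Strain was the single term of the limma fit, moderated by empirical Bayes over all tested probes, and adjusted p is Benjamini-Hochberg over them. The rank product used the 16 BTBR-by-B6 array pairs and 100 permutations of probes within arrays. Both were tested on simulated data. Single probes were compared with two-sided exact permutation tests. The number of arrays limits the precision, and p-values measure the spread between the mice sampled.
All members are accounted for. Called members were named with every array, uncalled ones by their brightest probe or a range, and other pathway genes when limma called them. Members, lists and alternatives were chosen with earlier results of these data known. The 12 marker lists were neuron, CA1, CA3, dentate gyrus, Cajal-Retzius, astrocyte, microglia, oligodendrocyte, endothelial, choroid plexus, meninges and thalamus. The alternatives were normexp background correction, the processed signal, median centring, the deposited matrix, other filters and thresholds, flagged spots kept, arrays left out, replicate number or slide as a block, fits within slides, limma with trend and robust options, and gene-level medians over probes.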

Additional observations from a re-analysis of the deposited data

Results flagged for a closer look

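Among 130 groups of 4 arrays (65 probes, 2 strains), 12 held an array whose gap to its nearest neighbor, divided by the range of the group, was past Dixon's critical value at the 95% level. Chance gives such a gap in about 1 in 20 groups. On BTBR replicate 3 the Fzd5 probe A_51_P166456 was high at 11.74 and the Dvl1 probe A_52_P234958 was low at 14.52. On BTBR replicate 1 the Ctnnb1 probe A_51_P272046 was high at 14.40 and the Wls probe A_52_P434924 was high at 9.28, whereas the Csnk1a1 probe A_51_P453856 was low at 13.43. On BTBR replicate 4 Wnt7a was high at 10.58 and the Gsk3b probe A_51_P514412 was low at 11.61. On B6 replicate 1 the Apc probe A_51_P429446 was high at 9.42 and Sfrp2 was low at 8.57. On B6 replicate 2 the Tle1 probe A_51_P199716 was low at 12.11 and the Apc probe A_52_P633752 was low at 8.84. On B6 replicate 4 Wnt10a was low at 11.63. None of these arrays belonged to a called probe of Sfrp1, Fzd2 or Gsk3a.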

How the results depend on the processing

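The calls of Sfrp1 and Gsk3a held under 21 alternatives each, with differences from 1.41 to 2.35 and from -0.94 to -0.46. The Fzd2 probe entered the test through the B6 arrays alone, so that its calls say nothing of its stability. Its value ran from -2.90 with the processed signal to -0.38 with the deposited matrix, and it was not tested where a signal on all arrays was required. Limma called 3 member probes in 3 genes with each array left out in turn, and 6 probes in 5 genes within slide 1, which adds Frzb (-0.95), Dkk3 (-0.64) and the other Sfrp1 probe (0.45), which passed the filter through BTBR alone. Without BTBR replicates 1 and 2 it called 4, adding Wnt2. The rank product called from 1 to 4 member probes with an array left out and 1 at a pfp of at most 0.01. With the median over probes, 4 of the other pathway genes were called instead of 8. Among those, Csnk1g1 was lost under 7 alternatives, Id2 under 4 and Ccdc88c within slide 2. The Ccdc88c value ran from -1.60 with the processed signal to -0.29 with the deposited matrix. No called probe changed its direction. Uncalled ones did, among them Dkk3 (0.29), the brightest Csnk1a1 probe (0.01) and the Fzd10 probe A_51_P233367 (-0.09) when BTBR replicates 1 and 2 were left out.
The replicate numbers did not pair the arrays throughout. Same-numbered arrays correlated in their deviations from the strain means by -0.14, 0.51, -0.10 and 0.39. For B6 replicates 2 and 4 the BTBR array of the same number was the most correlated, and for B6 replicates 1 and 3 it was not. With the replicate number as a block limma called 4 member probes, adding Frzb (adjusted p = 0.0341), and 8 other pathway genes, of which 7 were shared. With the slide as a block it called 4 as well, again adding Frzb.
Signal over background limits what can be said of Wnt8b and Axin2. Of the 9 member probes not tested, Axin1 was left out for its flag. Strain sequences under the probes were not analysed here.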

Other observations

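Of the other pathway genes, 4 were called by the rank product and not by limma. Sostdc1, a secreted inhibitor, read 10.99, 11.33, 11.72 and 10.29 in B6 and 13.98, 13.71, 11.61 and 11.65 in BTBR. Its difference of 1.65 was 0.55 without BTBR replicates 1 and 2, the arrays with the highest choroid plexus levels. Rspo1, a secreted agonist of Wnt signaling, differed by 0.99 with all arrays and by 0.46 without those 2. Rspo2, an agonist of the same family, read 11.20, 11.24, 11.39 and 11.18 in B6, 9.87 to 10.22 on BTBR replicates 1, 2 and 3, and 11.28 on BTBR replicate 4. Jun, a target gene, differed by -0.75 with all arrays and by -0.41 without BTBR replicates 1 and 2. These 4 genes were named after their values were seen.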
